A study of Mus musculus with 12 samples.

Results

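Immediate early genes and Krüppel-like factors (KLFs) were followed as a set of 10 genes in the mouse trigeminal nerve, which carries sensation from the face. The genes were Egr1, Egr3, Ier2, Ier3, Phlda1, Nr4a1, Nr4a2, Klf2, Klf4 and Myc, a list of genes of this response, taken by symbol from a table of 47480 genes. All 10 were present, and all 10 were among the 17236 genes that passed the filter on low counts and were tested. RNA was sequenced from 6 libraries of normal nerve (Nf1 flox/flox PostnCre-) and 6 of plexiform neurofibroma (Nf1 flox/flox PostnCre+). Floxed Nf1 was thus carried by both groups, and the Cre transgene, named for the periostin gene Postn, by the tumour group alone, so that genotype and tumour state coincide. Plexiform neurofibromas are benign tumours of the nerve sheath that follow loss of Nf1, the gene of the RAS inhibitor neurofibromin. The labels give no drug treatment, age, sex, litter or batch for these samples and do not say that each came from its own animal, so p-values measure the spread between these samples.

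Immediate early genes are transcribed within minutes of a stimulus, from promoters that are poised and need no new protein synthesis. The ERK branch of RAS signalling is one of their main inputs, through the factors SRF, ELK and CREB, and their RNAs and proteins are short-lived. In nerve they respond to growth factors and to injury, and tissue dissection can also induce them. KLF2 and KLF4 are zinc finger factors best known in endothelium, where blood flow induces them.

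The start regions of the NR4A pair and of the KLF pair are shown, as both members of each had one in the RefSeq promoter table of build GRCm38.p6. Within groups the members of each pair moved together, with a Pearson r of 0.84 and 0.91 after each group was centred. Egr1 with Ier2 (0.91) and Phlda1 with Nr4a2 (0.92) did so as closely, but Egr1, Ier2 and Phlda1 were not in that table. The stretches shown are the bases before the RefSeq start site, read 5′ to 3′ on the gene's strand. Capitals mark matches to GCGNGGGCG, the zinc finger motif of the EGR family, on either strand, and in Klf2 also a match to the MEF2 motif.

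Nr4a1: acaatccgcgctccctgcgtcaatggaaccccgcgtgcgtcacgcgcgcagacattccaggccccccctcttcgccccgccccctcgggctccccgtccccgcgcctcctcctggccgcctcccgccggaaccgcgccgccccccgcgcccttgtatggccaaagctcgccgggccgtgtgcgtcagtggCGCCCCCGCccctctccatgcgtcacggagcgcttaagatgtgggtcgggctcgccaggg

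Nr4a2: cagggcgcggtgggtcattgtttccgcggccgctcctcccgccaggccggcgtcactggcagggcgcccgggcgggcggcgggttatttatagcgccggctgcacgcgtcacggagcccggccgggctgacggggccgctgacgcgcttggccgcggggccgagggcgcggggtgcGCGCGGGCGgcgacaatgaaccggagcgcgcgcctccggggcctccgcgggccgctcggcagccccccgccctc

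Klf2: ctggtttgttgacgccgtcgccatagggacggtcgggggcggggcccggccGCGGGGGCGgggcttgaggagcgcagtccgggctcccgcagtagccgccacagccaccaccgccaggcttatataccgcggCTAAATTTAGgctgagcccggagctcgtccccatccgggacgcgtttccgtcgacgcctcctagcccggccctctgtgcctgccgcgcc

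Klf4: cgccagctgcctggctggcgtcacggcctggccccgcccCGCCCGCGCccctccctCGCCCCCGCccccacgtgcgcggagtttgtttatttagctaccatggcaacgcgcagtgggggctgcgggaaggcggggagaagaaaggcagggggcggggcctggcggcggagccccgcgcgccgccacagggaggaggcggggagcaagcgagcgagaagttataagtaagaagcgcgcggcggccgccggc

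The Nr4a1 stretch lay at chr15:101266596-101266845 on the plus strand, inside the longest annotated Nr4a1 gene span. The Nr4a2 stretch lay at chr2:57124004-57124253 on the minus strand and the Klf4 stretch at chr4:55532476-55532725 on the minus strand. The Klf2 stretch lay at chr8:72318812-72319032 on the plus strand and was printed for 221 bases, up to the first annotated exon. Of the 10 genes, 5 matched the promoter table: these 4 and Ier3. Over the 250 bases before the start, GCGNGGGCG was present in 4 of the 5 windows and in 4.7% of all 32851 windows of that length. TGACG, the core of the CREB site, was in 4 of 5 windows against 17.8% of all windows, with 4 matches each in Nr4a1 and Nr4a2. GGGCGG, the motif of SP and KLF factors, was in 5 of 5 against 32.7%, and it can overlap GCGNGGGCG. The MEF2 motif was in Klf2 alone of the 5, against 0.508% of all windows, and CCGGAA, the ETS motif, in Nr4a1 alone, against 12%. The CArG box bound by SRF was in 0 of 5 and in 1.47% of all windows. The GC content of the 4 printed genes' windows was 71.2% to 80%, and that of Ier3 was 54.4%, where the median of all windows was 52.4%. Windows of matched GC content were not compared. A match is a description of these letters, not a bound site.

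In plexiform neurofibroma, Nr4a1 and Phlda1 rose, Klf2 fell, and the other 7 genes did not pass the test. Thus 2 of 10 genes were higher and 1 of 10 lower, at an adjusted p under 0.05 in edgeR's quasi-likelihood test with Benjamini-Hochberg adjustment over all tested genes. Over all 17236 tested genes, 10.0% were called higher and 8.63% lower, or 18.7% in all, so the 10 genes held about 1 call more than the background share. The median log2 fold change of the 10 genes, plexiform neurofibroma over normal nerve, was 0.15, and that of all tested genes was -0.02. Of the 10, 7 had a log2 fold change above 0. Levels are in CPM, the counts scaled to a common library size with TMM factors, listed for replicates 1 to 6 of each group. Means stand with ± SD over the 6 libraries of a group. In bulk tissue, fewer cells of a type and less RNA per cell cannot be told apart.

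**Figure D1:**
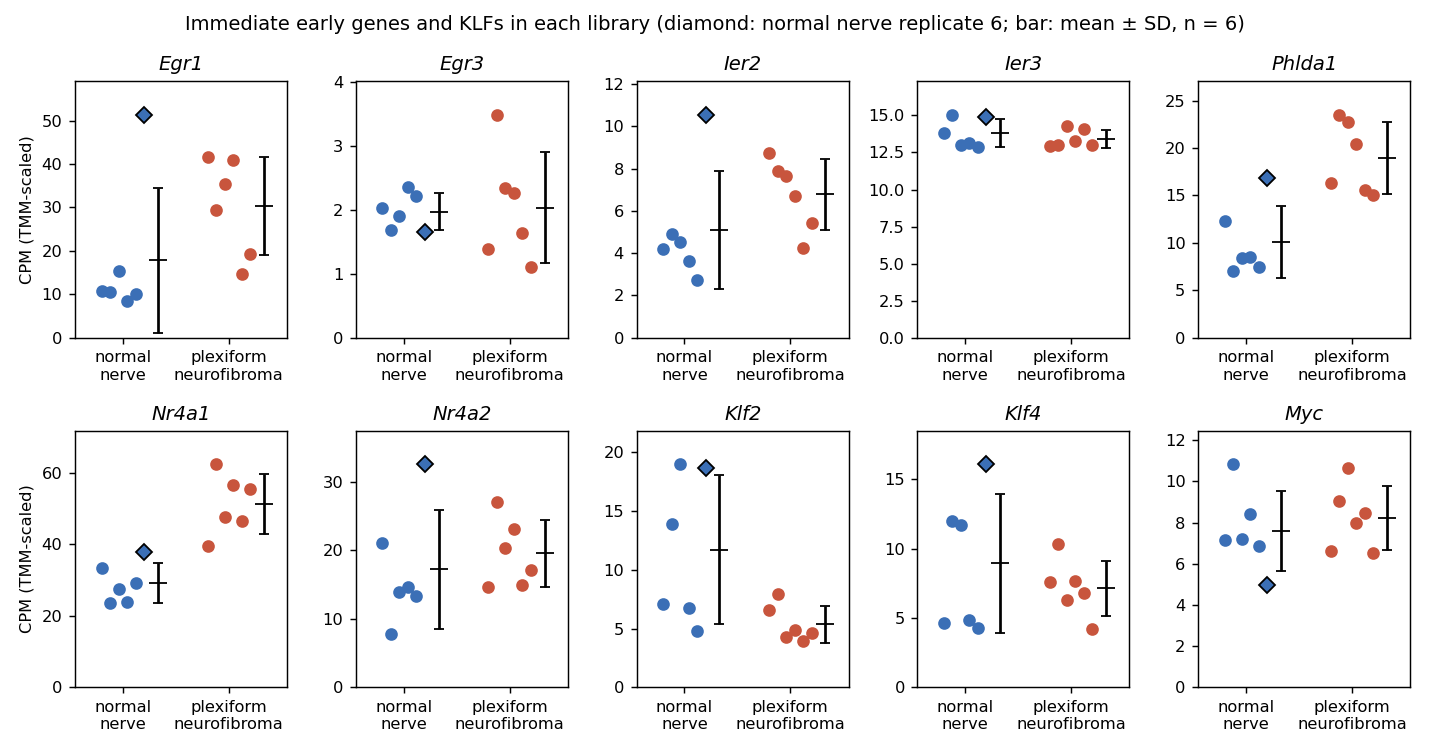
CPM of each of the 10 genes in each library (points), with the mean and SD of each group of 6 beside them. Nr4a1 is the gene whose groups do not overlap, and normal nerve replicate 6 (diamond) is the highest normal library for Egr1, Ier2, Phlda1, Nr4a1, Nr4a2 and Klf4.

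Total counts ran from 14160025 to 19989351 per library and did not differ beyond the spread between libraries (exact permutation, two-sided p = 0.524). Nf1, the floxed gene, had a mean of 131 CPM ± 35.8 in normal nerve against 83.8 CPM ± 8.13 in tumours (SD, n = 6; log2 fold change -0.65, edgeR adjusted p = 0.0179). Its groups overlapped, and its count covers the whole gene, not the floxed part alone. Schwann cell markers were present in every library, at a summed 5440 to 14429 CPM in normal nerve and 13471 to 22878 CPM in the tumours. Sensory neuron markers were also abundant, at 9224 to 17752 and 11472 to 14742 CPM. Normal nerve replicate 6 stood apart, with the lowest sensory neuron sum of all 12 libraries and the highest sum of markers of the central nervous system (CNS), 1572 CPM against 178 to 507 CPM in the other 11. It also had the highest endothelial sum, 355 CPM against 159 to 292 CPM. Normal nerve replicate 3 and plexiform neurofibroma replicate 1 had the highest skeletal muscle sums of their groups, 379 and 1606 CPM, and the latter held 520 CPM of adipocyte markers. Results are given below with and without these libraries where a call depends on them.

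EGR1 and EGR3 are zinc finger transcription factors, and Egr1 is a classic readout of ERK signalling. Egr1 (chromosome 18, 34859823 to 34864984, GRCm38) measured 10.9, 10.6, 15.4, 8.41, 10.1 and 51.4 CPM in the normal libraries. In the tumour libraries it measured 41.7, 29.5, 35.4, 40.9, 14.6 and 19.4 CPM. Every tumour lay above the normal median of 10.7 CPM, yet the highest library of all was normal nerve replicate 6, so the groups overlapped. The means were 17.8 CPM ± 16.6 and 30.2 CPM ± 11.3. The log2 fold change was 0.77 (95% interval -0.22 to 1.76, edgeR adjusted p = 0.247), which did not pass. Without normal nerve replicate 6 it was 1.45 (edgeR adjusted p = 0.00349), and it was 1.48 (edgeR adjusted p = 0.00711) without all 3 libraries that stood apart. With the CNS, endothelial or sensory neuron score as a covariate the log2 fold change was 1.20, 1.47 or 0.80 and passed (edgeR adjusted p = 0.00759, 0.0233 and 0.0334), and limma-voom with sample weights gave 1.30 (adjusted p = 0.00978). Egr1 was called in 5 of 12 alternative settings and in 1 of 12 fits that left 1 library out. It did not pass in DESeq2 (log2 fold change 0.78, adjusted p = 0.173).

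Egr3 (chromosome 14, 70077203 to 70082614) was the least abundant of the 10, with 17 to 61 counts per library. The normal libraries measured 2.03, 1.68, 1.90, 2.36, 2.21 and 1.66 CPM. The tumour libraries measured 1.38, 3.49, 2.34, 2.27, 1.63 and 1.10 CPM and ranged to both sides of the normal values. Its log2 fold change was 0.05 (95% interval -0.51 to 0.60, edgeR adjusted p = 0.909), and without plexiform neurofibroma replicate 2, its highest library, it was -0.17. Nab1 and Nab2 encode corepressors that bind EGR proteins, and Nab2 is itself induced by EGR factors. Nab2 rose 1.92-fold, from 9.74 CPM ± 2.56 to 18.7 CPM ± 4.23 (edgeR, adjusted p = 0.00722). The 6 tumour libraries, at 14.3 to 26.5 CPM, all lay above the 6 normal libraries, at 5.44 to 12.99 CPM. Nab1 did not pass, with a log2 fold change of 0.27 (edgeR adjusted p = 0.152).

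Ier2 and Ier3 are small immediate early response genes without a shared fold. Ier2 (chromosome 8, 84661331 to 84662852) measured 4.21, 4.93, 4.55, 3.61, 2.71 and 10.6 CPM in normal nerve. The tumour libraries measured 8.76, 7.91, 7.63, 6.70, 4.25 and 5.44 CPM. As with Egr1, normal nerve replicate 6 was the highest of all 12, and plexiform neurofibroma replicate 5 was the lowest tumour. The log2 fold change was 0.41 (95% interval -0.22 to 1.05, edgeR adjusted p = 0.332). Without normal nerve replicate 6 it was 0.76 (edgeR adjusted p = 0.0156), and without the 3 libraries that stood apart it was 0.71 (edgeR adjusted p = 0.0416). It also passed with the endothelial or CNS score as a covariate (0.85 and 0.61, edgeR adjusted p = 0.0175 and 0.0299) and in limma-voom with sample weights (0.74, adjusted p = 0.0238). With Egr1 and Ier2 passing, 4 of the 10 genes were called higher in these 5 fits. The shares of all genes called higher in them were 14.6% without normal nerve replicate 6, 12.4% without the 3 libraries, 11.9% and 14.2% with the endothelial and CNS scores, and 16.7% in limma-voom. With the sensory neuron score 3 of the 10 were called higher, and 11.5% of all genes. The 5 fits are not separate evidence. Normal nerve replicate 6 was also among the 3 libraries left out, and it had the highest CNS and endothelial marker sums. The fits with the CNS score and without the 3 libraries were chosen after seeing the data. Ier2 was called in 4 of 12 alternative settings and in 1 of 12 fits that left 1 library out. It did not pass in DESeq2 (adjusted p = 0.321).

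Ier3 (chromosome 17, 35821684 to 35822923), which protects cells from apoptosis, varied least. The lowest, median and highest normal libraries measured 12.9, 13.5 and 15.1 CPM. Those of the tumours measured 12.9, 13.2 and 14.3 CPM, so that both groups covered nearly the same span. The highest of the 12 values was 1.17 times the lowest, where the same ratio was 6.11 for Egr1. The log2 fold change was -0.04 (95% interval -0.20 to 0.12, edgeR adjusted p = 0.734). The within-group SD of log2 CPM was 0.083 for Ier3, at percentile 2.18 of all tested genes, and 0.80 for Egr1, at percentile 94.4, with a median of 0.24 over all tested genes. Klf4, Klf2, Nr4a2 and Ier2 also lay high, at percentiles 90.6, 90.3, 85.9 and 84.7.

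PHLDA1 is a pleckstrin homology domain protein that ERK signalling induces and that restrains receptor tyrosine kinases. Phlda1 (chromosome 10, 111506286 to 111508645) measured 12.3, 7.02, 8.40, 8.48, 7.49 and 16.8 CPM in normal nerve. The tumour libraries measured 16.3, 23.5, 22.7, 20.4, 15.6 and 15.1 CPM. All 6 tumours lay above 5 of the normal libraries, and the overlap came from normal nerve replicate 6. The means were 10.1 CPM ± 3.79 and 19.0 CPM ± 3.76. Phlda1 rose 1.88-fold (log2 fold change 0.91, SE 0.21, edgeR adjusted p = 0.0133), and it passed whichever single library was left out, at 0.83 to 1.11. A noncoding gene, Gm28592, overlaps it on the other strand, and whether counting used strand is not given in the sources used here. Of its relatives, Phlda3, a p53 target that inhibits AKT, rose from 28.3 CPM ± 4.53 to 41.1 CPM ± 8.04 (edgeR, adjusted p = 0.0179). Phlda2 stayed under 1 CPM on average and did not pass (log2 fold change -0.28, edgeR adjusted p = 0.665).

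NR4A1 (NUR77) and NR4A2 (NURR1) are orphan nuclear receptors whose activity is set by how much protein is made. Nr4a1 (chromosome 15, 101254269 to 101274795) measured 33.4, 23.5, 27.6, 23.8, 29.3 and 38.0 CPM in normal nerve. The tumour libraries measured 39.5, 62.4, 47.5, 56.6, 46.6 and 55.5 CPM. The groups did not overlap, and the gap between the highest normal library, replicate 6, and the lowest tumour library, replicate 1, was narrow. Over all tested genes, 4.40% were higher with no overlap, and Nr4a1 was the 1 of the 10 genes that was. The means were 29.3 CPM ± 5.63 and 51.3 CPM ± 8.31. Nr4a1 rose 1.75-fold (log2 fold change 0.81, SE 0.14, edgeR adjusted p = 0.00325). It passed under every alternative setting run and whichever single library was left out. No fit had the Schwann cell, fibroblast or macrophage score as a covariate.

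Nr4a2 (chromosome 2, 57106830 to 57124003) measured 21.1, 7.73, 13.9, 14.6, 13.4 and 32.6 CPM in normal nerve. It measured 14.7, 27.1, 20.3, 23.2, 14.9 and 17.2 CPM in the tumours, all within the normal range. Its log2 fold change was 0.19 (95% interval -0.44 to 0.81, edgeR adjusted p = 0.681). Left without normal nerve replicate 6 it was 0.47 (edgeR adjusted p = 0.152). Nr4a3, the remaining NR4A gene, averaged 1.84 and 1.96 CPM and did not pass. NR4A1 and NR4A2 can pair with retinoid X receptors. Of the 3 RXR genes, Rxrg rose from 12.9 CPM ± 2.16 to 27.3 CPM ± 7.50 (edgeR, adjusted p = 0.00299). Its tumour libraries, at 16.8 to 39.8 CPM, all lay above the normal ones, at 10.1 to 15.5 CPM, and the other 2 RXR genes did not pass.

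**Figure D2:**
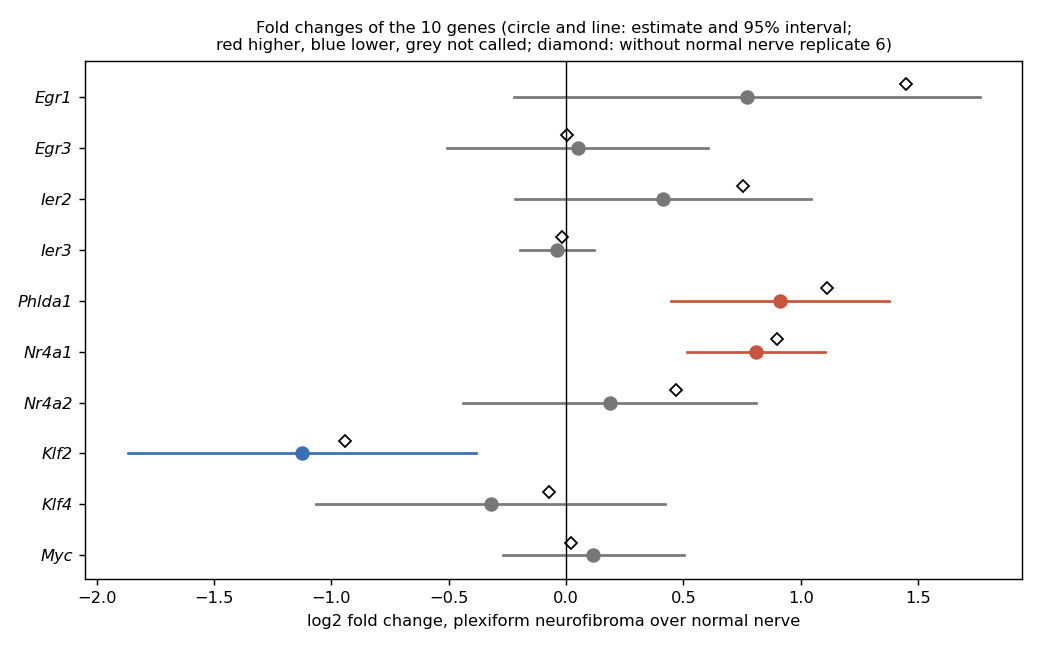
Log2 fold change of the 10 genes with its 95% interval (circles and lines), and the estimate without normal nerve replicate 6 (diamonds). Leaving that library out moved Egr1 from 0.77 to 1.45 and Klf2 from -1.12 to -0.94, while Nr4a1 and Phlda1 stayed above 0 throughout their intervals.

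Klf2 fell. Klf2 (chromosome 8, 72319033 to 72321656) measured 7.10, 13.9, 19.0, 6.74, 4.78 and 18.7 CPM in normal nerve. The tumour libraries measured 6.56, 7.96, 4.27, 4.87, 3.96 and 4.59 CPM. The normal libraries fell apart into 3 high ones (replicates 2, 3 and 6) and 3 low ones (replicates 1, 4 and 5), and the tumours overlapped the low ones. The means were 11.7 CPM ± 6.34 and 5.37 CPM ± 1.56. The fold was 0.459 (log2 fold change -1.12, 95% interval -1.87 to -0.38, edgeR adjusted p = 0.0384). The call was kept when normal nerve replicate 1, 4 or 5 or plexiform neurofibroma replicate 2 was left out. It was lost without any of the other 8 libraries, singly (log2 fold change at the extremes -1.28 and -0.93 over all 12), and without the 3 libraries that stood apart (-0.68, edgeR adjusted p = 0.136).

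Klf4 (chromosome 4, 55527143 to 55532466) split the normal libraries the same way. It measured 4.62, 12.0, 11.7, 4.87, 4.28 and 16.1 CPM in normal nerve and 7.58, 10.3, 6.26, 7.64, 6.81 and 4.21 CPM in the tumours. The tumours lay between the high and the low normal libraries, except that replicate 6 was lower than all of them. Its log2 fold change was -0.32 (95% interval -1.07 to 0.42, edgeR adjusted p = 0.530), which did not pass.

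Endothelial markers moved with both KLFs. All 12 endothelial markers were detected and tested, with at least 65 counts in every library. Of these, 1 was lower, Cdh5, the endothelial cadherin (log2 fold change -0.69, edgeR adjusted p = 0.0280), and 0 were higher, with the same counts in DESeq2 and limma-voom. At an unadjusted p under 0.05, 4 were lower and 0 higher. At that threshold 6071 of the 17236 tested genes passed, counting both directions. Over all tested genes, edgeR called 8.63% lower and 10.0% higher at an adjusted p under 0.05. The summed level of the 12 endothelial markers was 161 to 355 CPM in normal nerve and 159 to 240 CPM in the tumours. Among the normal libraries it was highest in replicates 6, 2 and 3, those with high Klf2 and Klf4. Over all 12 libraries the Pearson r of Klf2 with the endothelial score was 0.87, as it was with each group centred. Libraries with similar endothelial sums could still differ in Klf2. Plexiform neurofibroma replicate 2 and normal nerve replicate 3 had endothelial sums of 240 and 235 CPM but Klf2 at 7.96 and 19.0 CPM. Normal nerve replicate 1, with a sum of 217 CPM, had Klf2 at 7.10 CPM. With the endothelial score as a covariate, the log2 fold change of Klf2 was -0.59 (edgeR adjusted p = 0.0620) and that of Klf4 was 0.26 (edgeR adjusted p = 0.399), so that the Klf2 call was lost. No filter on low counts and limma-voom also left 0 of the 10 genes called lower. Of all genes, 11.1% were called lower with the endothelial score, 2.80% with no filter, 15.7% in limma-voom and 10.9% without the 3 libraries that stood apart. The part of endothelial content in these results was not tested further. Of 3 known endothelial targets of KLF2 and KLF4, edgeR called 0, with 2 lower at an unadjusted p under 0.05, limma-voom called 0, and DESeq2 called 2 lower, Nos3 and S1pr1. Nos3, endothelial nitric oxide synthase, had a log2 fold change of -0.99 (edgeR adjusted p = 0.0827), S1pr1 of -1.03 (edgeR adjusted p = 0.0739) and Thbd, thrombomodulin, of -0.11 (edgeR adjusted p = 0.842).

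MYC is the growth-promoting factor that pairs with MAX. Myc (chromosome 15, 61985391 to 61990374) measured 7.15, 10.8, 7.20, 8.41, 6.84 and 4.98 CPM in normal nerve. It measured 6.61, 9.05, 10.6, 7.98, 8.44 and 6.54 CPM in the tumours, all inside the normal range. The log2 fold change was 0.12 (95% interval -0.27 to 0.50, edgeR adjusted p = 0.678). Normal nerve replicate 6 was here the lowest of the 12 libraries, where it was the highest for Egr1, Ier2, Nr4a2 and Klf4.

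Levels of different genes can be compared only per length. Divided by the longest annotated transcript, normal nerve held most Ier3 (12.2 CPM per kb ± 0.847) and Nr4a1 (11.5 ± 2.20), which did not differ beyond their spread. Below them came Klf2 (6.34 ± 3.43), Phlda1 (5.18 ± 1.94), Nr4a2 (4.83 ± 2.42), Egr1 (3.96 ± 3.71), Ier2 (3.35 ± 1.83), Myc (3.24 ± 0.832) and Klf4 (2.94 ± 1.65), whose neighbours all overlapped within their SD, as did Nr4a1 and Klf2. Egr3, at 0.501 CPM per kb ± 0.0720, was lowest. In the tumours Nr4a1 led with 20.1 CPM per kb ± 3.26, above Ier3 with 11.9 ± 0.533 and Phlda1 with 9.73 ± 1.93. Klf2, next after that leading pair in normal nerve, was among the lowest there, at 2.91 CPM per kb ± 0.845. Klf4, at 2.36 ± 0.660, overlapped it, and Egr3, at 0.517 ± 0.220, was again lowest.

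The libraries differed in the 10 genes together. Centred on its own group's mean, the mean log2 CPM of the 10 genes was 0.65 in normal nerve replicate 6 and 0.36 in plexiform neurofibroma replicate 2, each the highest library of its group for 6 genes. It was -0.37 in normal nerve replicate 5 and -0.31 in plexiform neurofibroma replicate 6.

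**Figure D3:**
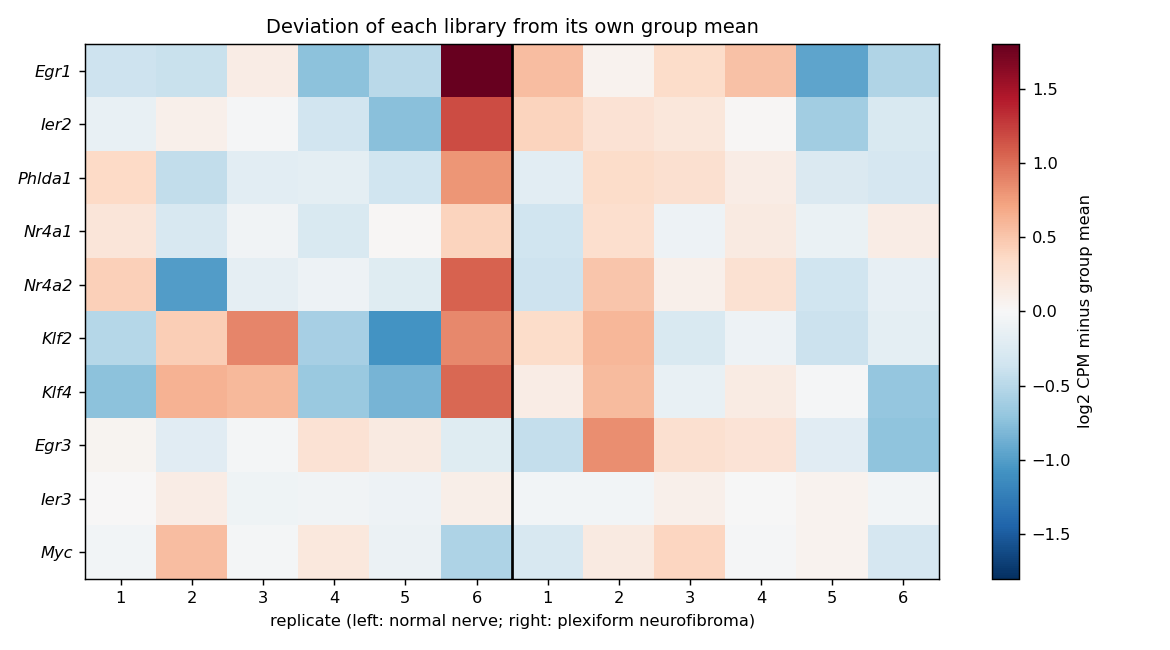
Log2 CPM of each gene (rows) in each library (columns) minus its group mean, on a colour scale from blue (below) to red (above). Egr1, Ier2, Nr4a2, Klf2 and Klf4 are red in normal nerve replicate 6, Ier3 is pale in all 12 libraries, and Myc is blue in normal nerve replicate 6.

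Over the 12 libraries, 3 of the 45 gene pairs had a Pearson r of log2 CPM above 0.8. These correlations describe 12 libraries that share a normalization and, within a group, a condition, and they carry no test. The share of such pairs among other genes is not given for comparison. Egr1 and Ier2 tracked each other (r = 0.92, Spearman rho = 0.92), at 0.91 within normal nerve and 0.90 within the tumours, and at 0.88 without the 2 libraries farthest from the median of Egr1. Phlda1 and Nr4a1 had an r of 0.91 (rho = 0.86), with 0.88 within normal nerve and 0.45 within the tumours. The other pair above 0.8 was Egr1 and Phlda1 (r = 0.81, rho = 0.77).

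With each group centred, 35 of the 45 pairs had an r above 0 and 4 had one above 0.8. The 4 were Phlda1 with Nr4a2 (0.92), Egr1 with Ier2 (0.91), Klf2 with Klf4 (0.91) and Nr4a1 with Nr4a2 (0.84). Pairs of other genes were not counted in the same way. Whether the members tracked each other more closely than other genes do was not tested. Klf2 and Klf4 correlated at 0.96 within normal nerve and 0.68 within the tumours, and uncentred at 0.79 (rho = 0.68), or 0.60 without the 2 libraries farthest from the median of Klf2. Nr4a1 and Nr4a2 correlated at 0.89 within normal nerve and 0.82 within the tumours. The lowest centred value was that of Nr4a2 with Myc, -0.52, which came from normal nerve (-0.91) and was 0.51 within the tumours.

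**Figure D4:**
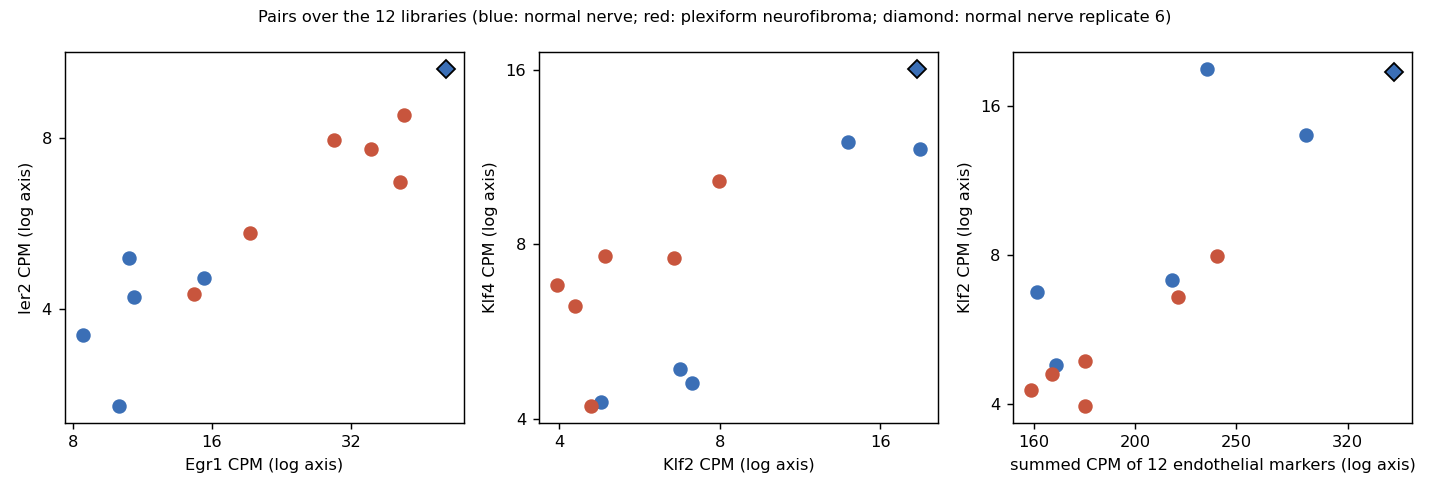
CPM of Ier2 against Egr1, of Klf4 against Klf2, and of Klf2 against the sum of 12 endothelial markers, 1 point per library, all axes logarithmic. Egr1 and Ier2 lie along 1 line across both groups (r = 0.92), and the 3 normal libraries with the highest endothelial sums are the 3 with the highest Klf2. Plexiform neurofibroma replicate 2, with a similar endothelial sum to normal nerve replicate 3 (240 and 235 CPM), has less Klf2 (7.96 and 19.0 CPM).

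Marker levels moved with these deviations. Centred within groups, the endothelial score had an r of 0.87 with Klf2 and 0.86 with Klf4, and without normal nerve replicate 6 the uncentred values were 0.81 and 0.75. Ier2 had a centred r of 0.79 with the endothelial score, but its uncentred r of 0.46 was 0.21 without normal nerve replicate 6. Against the sensory neuron score, the centred r was -0.85 for Nr4a2, -0.84 for Egr1, -0.81 for Phlda1, -0.80 for Ier2 and -0.69 for Nr4a1, while that of Myc was 0.70. Egr1 and Ier2 each had a centred r of 0.80 with the CNS score, at 0.97 and 0.95 within normal nerve but 0.24 and 0.20 within the tumours. Their uncentred values of 0.61 and 0.67 were 0.46 and 0.51 without normal nerve replicate 6. Uncentred, Nr4a1 had an r of 0.86 with the Schwann cell score, 0.83 with the macrophage score and 0.81 with the fibroblast score. The same values for Phlda1 were 0.74, 0.79 and 0.78. Centred within groups, those of Nr4a1 were 0.48, 0.61 and 0.54, and those of Phlda1 were 0.21, 0.53 and 0.49. None of these scores was used as a covariate. The part of tissue composition in the members' levels was not tested beyond the covariate fits above.

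The nearest non-member gene in pattern, of 12544 with a mean of at least 5 CPM, was found for each member by Pearson r over the 12 libraries. It was Cbx1 for Phlda1 (0.98), Btg1 for Nr4a1 (0.98), St3gal4 for Egr1 (0.95), Zfp36 for Ier2 (0.94) and Dcakd for Nr4a2 (0.94). For the rest it was Mrpl44 for Ier3 (0.93), Prelid1 for Myc (0.92), Rhob for Klf2 (0.90), Eng for Klf4 (0.90) and Gm43305 for Egr3 (0.87). Each value is the highest of 12544 over 12 libraries and carries no test. Ier3 varied little (within-group SD of log2 CPM 0.083) and Egr3 had 17 to 61 counts per library. Zfp36 and Rhob are on the list of other immediate early genes, and Eng, which encodes the TGF-beta coreceptor endoglin, is 1 of the 12 endothelial markers. The same gene ranked first by Spearman's rho for 3 of the 10: Egr3, Ier2 and Myc. Closest to the mean of the centred members were Rpl8 (0.94), Foxp1 (0.94) and Cbfa2t3 (0.93).

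Of 50 other immediate early genes, 46 were tested, 8 rose and 2 fell, with a median log2 fold change of 0.18. Among all tested genes 10.0% were higher and 8.63% lower. By p-value the first to rise were Dusp6, Hbegf, Mcl1 and Cebpd. Dusp6, the phosphatase that switches off ERK, was at 20.5 to 24.5 CPM in normal nerve and 38.4 to 54.3 CPM in the tumours, with no overlap (log2 fold change 0.998, edgeR adjusted p = 0.000297). Hbegf, which encodes a heparin-binding EGF-like growth factor, was at 6.97 to 19.8 CPM and 34.1 to 78.4 CPM (log2 fold change 2.10, edgeR adjusted p = 0.00187). Mcl1, an antiapoptotic BCL2 relative, rose from 79.6 CPM ± 7.27 to 102.5 CPM ± 12.7 (edgeR, adjusted p = 0.0147), and Cebpd, a bZIP factor, had a log2 fold change of 1.16 (edgeR adjusted p = 0.0191). The other 4 that rose were Zfp36l1, Plk2, Zfp36l2 and Ier5l, chosen after their values were seen. The number that rose moved in both directions when single libraries were left out, with the range given below. At the low end, 4 rose without plexiform neurofibroma replicate 4, where 6.30% of all genes were called higher. Without normal nerve replicate 4, normal nerve replicate 5 or plexiform neurofibroma replicate 2, 5 rose. The shares of all genes called higher in those fits were 7.62%, 6.80% and 6.98%.

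The kinase genes Pim1 and Sik1 fell. Pim1 was at 11.4 to 16.9 CPM in normal nerve and 8.08 to 10.9 CPM in the tumours, with no overlap (log2 fold change -0.46, edgeR adjusted p = 0.0180). Sik1, a CREB-induced kinase, was at 7.13 to 17.9 CPM and 5.89 to 9.36 CPM (log2 fold change -0.69, edgeR adjusted p = 0.0467), and it was called in 3 of 12 fits that left 1 library out. Egr4, Fosb, Dusp2 and Ptgs2 were too low to be tested. Heat shock genes, which tissue handling can also induce, numbered 0 higher and 0 lower of 9 tested in edgeR, with 0 at an unadjusted p under 0.05 and a median log2 fold change of -0.06. Over all tested genes edgeR called 18.7%, and 6071 of 17236 had an unadjusted p under 0.05. DESeq2 called 0 of the 9, where it called 21.9% of all genes. Limma-voom called Hspb1 and Hsph1 lower, where it called 15.7% of all genes lower. An effect of tissue handling was not tested.

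**Figure D5:**
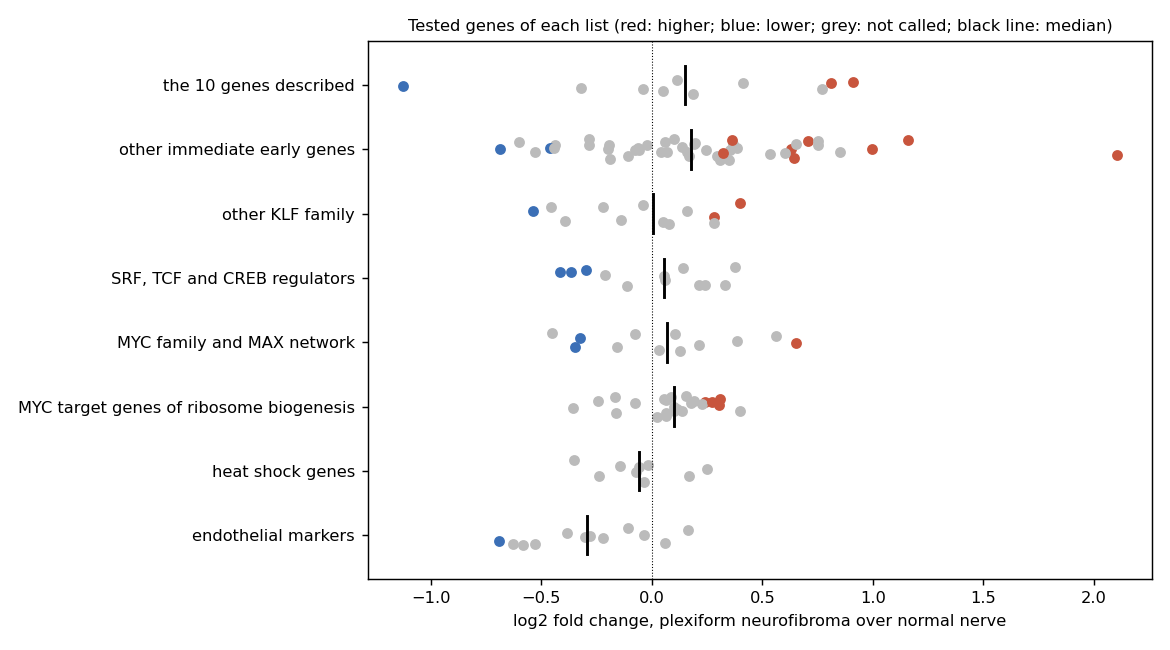
Log2 fold change of every tested gene (points) of the 10 members and of 7 lists, with each list's median (black line); red and blue mark genes called higher and lower. The 10 members span -1.12 to 0.91 about a median of 0.15, and Hbegf, at 2.10, lies farthest right among the other immediate early genes.

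The rest of the KLF family held 15 genes, of which Klf1, Klf14 and Klf17 were too low to be tested. Of the 12 tested, 2 rose and 1 fell, with a median log2 fold change of 0.01, where 10.0% of all tested genes rose and 8.63% fell. Klf6, a widely expressed injury-induced member, rose from 84.3 CPM ± 13.8 to 111 CPM ± 15.4 (edgeR, adjusted p = 0.0315). Klf10, induced by TGF-beta, rose from 16.5 CPM ± 1.81 to 20.1 CPM ± 1.69 (edgeR, adjusted p = 0.0440). Both groups overlapped for each, and with 1 library left out Klf6 was called in 5 of 12 fits and Klf10 in 4 of 12. Klf5 fell, with 11.7 to 14.8 CPM in normal nerve and 6.79 to 10.9 CPM in the tumours, with no overlap (log2 fold change -0.54, edgeR adjusted p = 0.0138), and it was called in all 12 such fits.

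Of 12 regulators that act on immediate early promoters (SRF, its ELK and MKL cofactors, and CREB with its coactivators), 3 fell, 0 rose and 9 did not pass in edgeR. At an unadjusted p under 0.05, 2 were higher and 4 lower, where 6071 of the 17236 tested genes passed in either direction. DESeq2 called 0 higher and limma-voom called 1 higher, Atf1. The median log2 fold change was 0.06. Among all tested genes, edgeR called 10.0% higher and 8.63% lower. Mkl2 and Mkl1, actin-sensitive coactivators of SRF, fell with no overlap between groups, where 2.99% of all tested genes were lower with no overlap. Mkl2 went from 40.3 CPM ± 3.45 to 31.2 CPM ± 1.49 and Mkl1 from 29.0 CPM ± 3.18 to 21.7 CPM ± 2.27 (edgeR, adjusted p = 0.00433 and 0.00944). Crtc1, a CREB coactivator, had a log2 fold change of -0.30 (edgeR adjusted p = 0.0179), and after a correction for transcript length it was -0.14 (edgeR adjusted p = 0.193). Mkl1 and Mkl2 had no annotated length under these symbols, so that correction was not run for them. Srf itself had a log2 fold change of 0.06 (edgeR adjusted p = 0.707).

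In the MYC family and MAX network, 1 of 12 genes rose and 2 fell, with a median log2 fold change of 0.07. The edgeR shares over all tested genes were 10.0% higher and 8.63% lower. Mxd4, which competes with MYC for MAX, rose from 93.4 CPM ± 20.6 to 147 CPM ± 29.9 (edgeR, adjusted p = 0.0140). Mlxip, a glucose-sensing partner of MLX, fell from 37.2 CPM ± 4.27 to 29.2 CPM ± 2.55 (edgeR, adjusted p = 0.0167), and the call was lost after the length correction (log2 fold change -0.24, edgeR adjusted p = 0.0641). Mnt, a MAX-binding repressor, had a log2 fold change of -0.32 (edgeR adjusted p = 0.0282) and was called in 5 of 12 fits with 1 library left out. Its call was also lost with no filter on low counts and after the length correction. Among 24 MYC target genes of ribosome biogenesis, 4 rose and 0 fell in edgeR, with a median log2 fold change of 0.10. At an unadjusted p under 0.05, 7 were higher and 2 lower, where 6071 of the 17236 tested genes passed in either direction. DESeq2 and limma-voom called 0 lower. The 4 were Wdr43, Nop16, Dkc1 and Pes1, with log2 fold changes of 0.24, 0.30, 0.31 and 0.27 (edgeR adjusted p = 0.0170, 0.0216, 0.0262 and 0.0357). With 1 library left out they were called in 12, 10, 9 and 6 of 12 fits. Nop16 and Pes1 also lost the call with no filter and after the length correction. Pes1 lost it too with the endothelial score and without the 3 libraries that stood apart.

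Cell type markers changed beside these genes. Of all tested genes, 10.0% rose in edgeR, 11.9% in DESeq2 and 16.7% in limma-voom, and 8.63%, 10.1% and 15.7% fell. In edgeR, 6071 of the 17236 tested genes had an unadjusted p under 0.05, in either direction. Fibroblast markers were at a summed 184 to 1264 CPM in normal nerve and 1467 to 3446 CPM in the tumours, and 5 of 8 rose in edgeR and 6 in DESeq2 and limma-voom. Macrophage markers were at 52.6 to 249 CPM and 167 to 360 CPM, and 4 of 10 rose in edgeR, where 9 were higher at an unadjusted p under 0.05, 8 in DESeq2 and 9 in limma-voom. Of 11 Schwann cell markers, 6 rose in edgeR, 8 in DESeq2 and 9 in limma-voom, while 0 of 13 sensory neuron markers and 0 of 7 tested CNS markers passed in edgeR. At an unadjusted p under 0.05, 0 sensory neuron markers and 1 CNS marker were lower. DESeq2 called 0 sensory neuron markers, limma-voom called 4 lower, and both called the CNS marker Slc17a7 lower. Which cells held the Nr4a1, Phlda1 and Klf2 RNA was not tested.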

How the data were processed

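PolyA RNA of 12 trigeminal nerve samples was sequenced. Per the labels' protocols, a stranded mRNA kit and a TruSeq kit are both named, so the kit is uncertain. Build mm10 and the tools Salmon 0.60, STAR 2.4.2a, DESeq2 and FastQC come from the submitters' processing notes, with no role or order. Which annotation and strand setting they used is not given in the sources used here. Estimated counts per gene symbol were deposited without normalization, and 84.1% to 86.5% per library were whole within 0.001. Such estimates can share reads between near-identical genes. The counts were rounded. Columns were matched to samples by title, and replicate numbers are names in accession order.

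Genes passing filterByExpr were tested in edgeR 4.0.16 by its quasi-likelihood F test (R 4.3.3, TMM factors, robust fit, no covariate, all 12 samples), and called at a Benjamini-Hochberg adjusted p under 0.05. Intervals are 95% intervals of the fit. Log2 CPM for correlations used a prior count of 2. Total counts, which ranged from 14160025 to 19989351, were compared over all splits by an exact permutation test. The test script was checked on simulated counts. Gene positions come from GENCODE vM21 (GRCm38, the assembly of mm10), in which 45187 of the 47480 symbols were found directly.

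Alternatives were upper-quartile and RLE factors, no low-count filter, CPM above 1 in 6 or more samples, limma-voom with sample weights (limma 3.58.1), DESeq2 1.42.0, the sensory neuron, skeletal muscle and endothelial scores as covariates, a transcript length correction (lowess, span 0.3) and each library left out in turn. A fit with the CNS score as covariate and a fit without 3 libraries were chosen after seeing the data. The members and gene lists were chosen with earlier results of these data known. The genes named were all 10 members, Nf1, up to 4 called genes per direction of each list by p-value (all called KLF, EGR partner, MAX network and SRF, TCF and CREB genes), and the genes most alike in pattern. Individual markers, genes of a list's count that did not pass and genes left untested are named beyond that rule.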

Additional observations from a re-analysis of the deposited data

Results flagged for a closer look

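In groups of 6 libraries, 66 groups of values were checked for 1 library far from the rest, and 3 had one, where chance gives about 1 in 20. Egr1 in normal nerve replicate 6 measured 51.4 CPM, and the next highest normal library measured 15.4 CPM. Ier2 in the same library measured 10.6 CPM, and the next measured 4.93 CPM. Mlxip in plexiform neurofibroma replicate 5 measured 34.0 CPM, and the next highest tumour measured 29.1 CPM. Normal nerve replicate 6 also had the highest CNS and endothelial marker sums and the lowest sensory neuron sum of the 12 libraries. The part of these in the 2 high values was not tested.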

How the results depend on the processing

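Nr4a1 and Phlda1 were called higher under every alternative run and with each library left out. None of these fits had the Schwann cell, fibroblast or macrophage score as a covariate. Called higher among the 10 genes were 4 genes, not 2, in limma-voom, with the endothelial or the CNS score as covariate, and without the 3 libraries that stood apart, and 2 to 4 with each library left out (4 without normal nerve replicate 6). In each of these the added genes were Egr1 and Ier2. With the sensory neuron score 3 of the 10 were called higher, and in DESeq2 2 were. Called lower were 0, not 1, with no filter (Klf2 -1.11, edgeR adjusted p = 0.0738), in limma-voom (-0.83, adjusted p = 0.0750), with the endothelial score and without the 3 libraries, and 0 to 1 with each library left out. In DESeq2 the adjusted p of Klf2 was 0.00768. Egr3 reversed in limma-voom (-0.18) and without plexiform neurofibroma replicate 2 (-0.17, with a range of -0.17 to 0.17 over each library left out), and Klf4 reversed with the endothelial score (0.26) and without the 3 libraries (0.12). The cause was not tested.

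Other immediate early genes called higher ran from 4 to 12 with each library left out. Those called lower were 1 with no filter, the skeletal muscle score, the length correction or without the 3 libraries, 3 in limma-voom, and 1 to 2 with each library left out. Over all genes, limma-voom called 2878 higher and 2707 lower, the CNS score gave 2267 lower and no filter 902 lower. With each library left out, 1092 to 2544 genes were higher and 801 to 2487 lower, the low ends without plexiform neurofibroma replicate 4 and the high ends without normal nerve replicate 6. The difference in total counts kept its direction throughout. No scaling alternative moved the median of all genes by over 0.1. No paired analysis was possible because the labels give no replicate numbers shared between the groups. Counts of 17 to 61 per library limit the precision of Egr3.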
